A study of Mus musculus with 4 samples.

Results

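The 9 genes described here are Mrc2, Fam20a and 7 genes from the same stretch of mouse chromosome 11, out of 24421 genes in the deposited count table. They were taken by symbol from a list of Tlk2, Mrc2, Tanc2, Ern1, Rgs9, Slc16a6, Wipi1, Prkar1a and Fam20a, in their order along the chromosome on the stretch that ends at 110 Mb. Mrc2 and Fam20a were put on the list because of how much higher they were in knockout cells, so their difference between the groups is given as a description and was not tested. The other 7 were listed as their neighbours with the same results known, and they are described in the same way. RNA was sequenced from LSK cells of mouse bone marrow, which are negative for lineage markers and positive for Kit and Sca-1. The KO group held 2 libraries from Zfp521-/- mice, and the WT group held 2 libraries from control littermates. The sources used here state neither age and strain nor how the Zfp521 allele was made. The labels speak of independent RNA samples of pooled stem cells without tying them to animals, so p-values measure only how these samples vary, and that variation may be in part technical.

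Mrc2 encodes an endocytic receptor of the mannose receptor family, also called Endo180 or uPARAP, which binds collagen and carries it into the cell for degradation. It is best known from fibroblasts, osteoblast-lineage cells and other mesenchymal cells, and some macrophages carry it as well. Fam20a encodes a secretory pathway pseudokinase that partners Fam20c, the kinase that phosphorylates many secreted proteins. Zfp521 encodes a zinc finger cofactor known to bind the B lineage transcription factor Ebf1.

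The libraries held 22000036 and 17787425 counts in KO, and 29863594 and 25813391 counts in WT. At these depths 3 counts, taken as the floor of detection, equal between 0.108 and 0.152 CPM (read counts scaled to TMM-normalised library size), and this floor covers counting error only. Zfp521 itself was at 308 and 215 counts in KO, against 1561 and 1429 counts in WT. Kit, which defines the sorted gate, was at 699 ± 3.33 CPM in KO and 662 ± 64.1 CPM in WT (SD, n = 2 each). WT replicate 2 stood apart from the other libraries. Its Xist count was 606, against 160613 in WT replicate 1, and 4 Y-linked genes summed to 5606 counts in it, against 14 in WT replicate 1. In KO, Xist was at 227405 and 230977 counts and the 4 Y-linked genes summed to 9 and 12. This is the pattern of a male sample in WT replicate 2 and of female samples in the other 3 libraries, so the WT libraries differ from each other in sex. Fold changes without WT replicate 2 are therefore given for the 9 genes and for other genes whose call or size it changes.

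Mrc2 was read in both KO libraries at a middling level and was close to the floor in WT. It had 1135 and 1038 counts in KO, against 6 and 3 counts in WT. On the scale of library size this was 51.3 and 52.7 CPM in KO, against 0.215 and 0.121 CPM in WT. Both KO libraries lay far above both WT libraries, and the values of the KO pair were close to each other. The summed counts were 2173 in KO and 9 in WT, a ratio of 304 after scaling (95% exact interval 160 to 666, for counting error only). The fitted log2 fold change of KO over WT was 8.21 (SE 0.38). Leaving out WT replicate 2 gave 7.86, the lowest value with any 1 library left out, and leaving out WT replicate 1 gave 8.68, the highest. Among the 14140 genes tested this was the 7th largest fitted rise. The ranking places Pde3a and Tph1 above Mrc2, and their fitted values (8.84 and 8.61) rest on WT counts of 0. Mrc2 lies on the plus strand at 105292643 to 105351139 of chromosome 11 in mm10.

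Fam20a showed the same contrast at a lower level. It had 504 and 531 counts in KO, against 3 and 12 counts in WT. These were 22.8 and 27.0 CPM in KO, against 0.108 and 0.483 CPM in WT. The 2 groups did not overlap, and the higher WT value was that of WT replicate 2. The summed counts were 1035 in KO and 15 in WT, a ratio of 87.0 after scaling (95% exact interval 52.5 to 156). The fitted log2 fold change was 6.41 (SE 0.54), and it was 7.77 without WT replicate 2 and 5.67 at its lowest with 1 library left out. Fam20a lies on the minus strand at 109669749 to 109722279, about 4.4 Mb from Mrc2.

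In bulk RNA, more cells of a type and more RNA per cell cannot be told apart, and this holds for each of the 9 genes. Markers of other cell types moved between the groups as well. Of 12 tested dendritic cell markers 8 passed the edgeR quasi-likelihood test in the higher direction, and their summed level was 1606 and 1481 CPM in KO, against 557 and 596 CPM in WT. Of 11 tested mast cell and basophil markers 7 passed in the higher direction, with sums of 462 and 294 CPM in KO, against 158 and 164 CPM in WT. Of 8 tested B lineage markers 7 passed in the lower direction, with sums of 93.5 and 61.7 CPM in KO, against 318 and 412 CPM in WT. Fibroblast, osteoblast and stromal markers, the cells best known for Mrc2, had 1 tested gene higher and 2 lower of 13, with sums of 759 and 660 CPM in KO, against 474 and 737 CPM in WT. Most of this sum is Runx2, at 549 and 513 CPM in KO, against 391 and 478 CPM in WT, and without it the sums were 210.2 and 147 CPM in KO, against 83.3 and 259 CPM in WT. The stromal markers did not move together: 5 of the 13 tested were higher and 4 lower at an unadjusted p under 0.05 (edgeR). Lepr, Cxcl12 and Vcam1 were higher in both KO libraries than in both WT libraries, and none of them passed the adjusted threshold. Pdgfrb, a growth factor receptor of pericytes and fibroblasts, rose: it was at 94.3 and 86.5 CPM in KO, against 27.4 and 41.2 CPM in WT (log2 fold change 1.40, adjusted p = 0.0046, edgeR). Col5a1, a minor fibrillar collagen, had 175 and 148 counts in KO, against 27 and 102 counts in WT. Postn and Alpl, genes of matrix-forming and osteoblast-lineage cells, fell (log2 fold changes -2.36 and -3.10, adjusted p = 0.0160 and 0.0193, edgeR), and both missed the threshold without either WT library. Col1a1, the main fibrillar collagen, had 58 and 2 counts in KO, against 13 and 1394 counts in WT. Of the 18 stromal markers listed, 2 had no count in either KO library, Lum and Sp7. Col3a1 and Bglap had none in KO replicate 2. WT had such gaps as well: Lum, Col3a1 and Ibsp had no count in WT replicate 1, and Pdgfra had none in WT replicate 2. Sp7 had 3 and 4 counts in WT, and Lum had 20 in WT replicate 2. Of 12 tested macrophage markers 0 passed at an adjusted p under 0.05 in either direction with edgeR or DESeq2, and 3 were higher at an unadjusted p under 0.05. The sums of the macrophage list were 94.3 and 92.5 CPM in KO, against 55.8 and 56.5 CPM in WT. Without WT replicate 2, 7 dendritic, 6 mast cell and 2 stromal markers passed in the higher direction and 6 B lineage markers in the lower. The part of these cells in the level of Mrc2 or Fam20a was not tested.

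**Figure D1:**
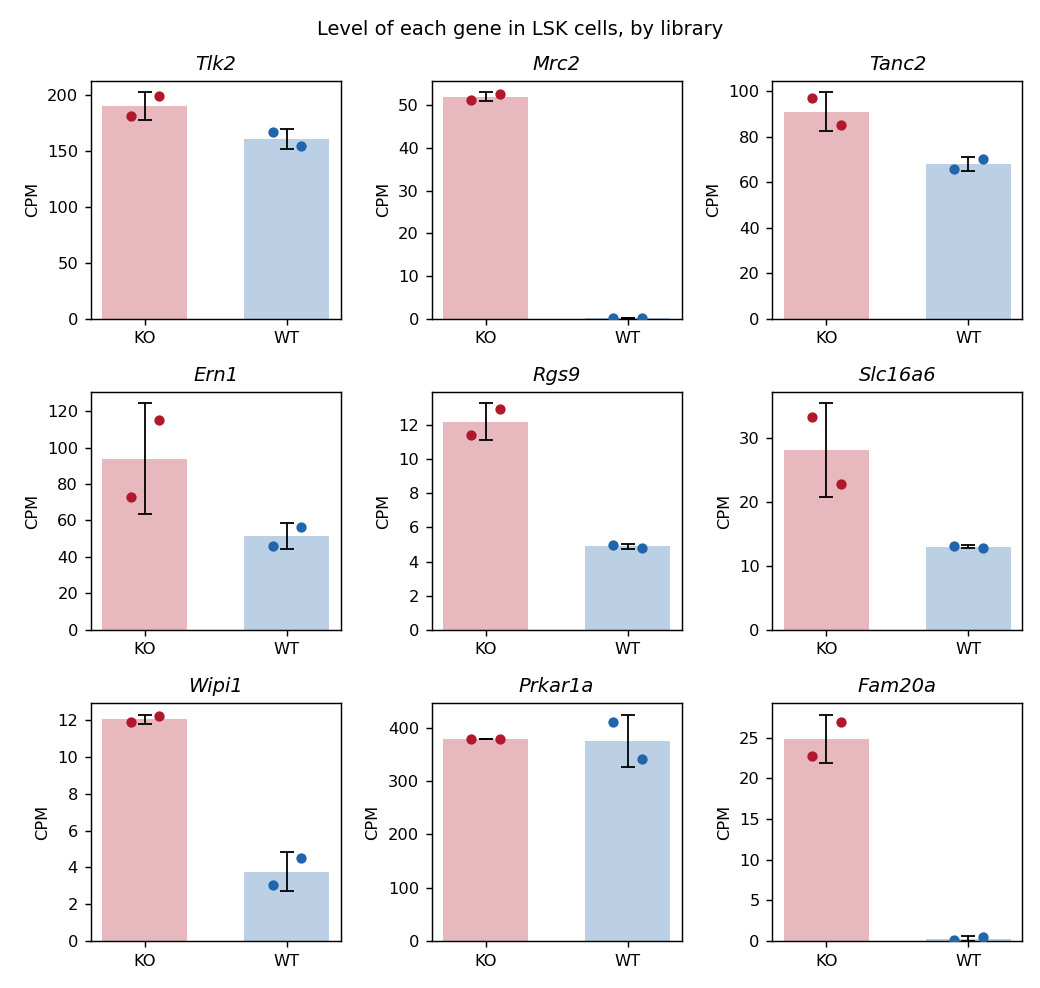
Level of each of the 9 genes in CPM, on a linear axis that starts at 0. Points are single libraries, bars are group means and error bars are SD (n = 2 each); in WT, Mrc2 averaged 0.168 CPM and Fam20a 0.295 CPM, so their bars are barely visible, while Prkar1a is the only gene whose KO and WT points overlap.

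The genes on either side of Mrc2 had nothing like its difference. Tlk2, which encodes a tousled-like kinase that acts on histone chaperones during DNA replication, ends 8683 bases before Mrc2 starts and is read from the same strand. Tlk2 was at 182 and 199 CPM in KO, against 167 and 154 CPM in WT. Tanc2, a scaffold gene studied mostly at synapses, is the next tested gene beyond Mrc2. Tanc2 was at 97.0 and 85.0 CPM in KO, against 65.9 and 70.3 CPM in WT. In both genes the KO libraries were above the WT libraries, by a fitted log2 fold change of 0.24 (SE 0.15) for Tlk2 and 0.42 (SE 0.17) for Tanc2. Without WT replicate 2 these were 0.17 for Tlk2 and 0.45 for Tanc2. Such a lack of overlap, at any size, is common in these data: both KO libraries lay above both WT libraries in 28.8% of all genes tested. By the size of the fitted rise, Tlk2 ranked 5002 and Tanc2 3879 among the 14140 genes tested. March10, between Mrc2 and Tanc2, had no read in any library. Mettl2 and 1700052K11Rik complete the nearest 3 tested genes below Mrc2. Mettl2, a tRNA methyltransferase gene, had a log2 fold change of -0.31 (adjusted p = 0.549, edgeR quasi-likelihood test). The antisense gene 1700052K11Rik, which overlaps Tlk2 by 2627 bases, had -1.03 (adjusted p = 0.208, edgeR). Beyond Tanc2 came Dcaf7, a WD-repeat gene, at -0.38 (adjusted p = 0.140, edgeR) and Taco1, a mitochondrial translation factor gene, at 0.19 (adjusted p = 0.772, edgeR). None of these 4 neighbours passed the test in either direction.

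The 1 Mb on each side of Mrc2 held 17 tested genes outside the list. Their median log2 fold change was -0.28, against 0.02 over all genes tested. One of the 17 rose, Itgb3, the integrin beta 3 gene of platelets and megakaryocytes, at -685 kb from the start of Mrc2. Itgb3 was at 18.0 and 50.9 CPM in KO, against 10.0 and 9.09 CPM in WT. Its log2 fold change was 1.85 (SE 0.41, adjusted p = 0.0241, edgeR), and it no longer passed without KO replicate 2 (log2 fold change 0.90, adjusted p = 0.135, edgeR) or without WT replicate 1 or 2 (adjusted p = 0.0735 and 0.119, edgeR). Megakaryocyte markers moved as well, with 2 of 6 tested genes higher and sums of 651 and 642 CPM in KO, against 480.1 and 525 CPM in WT, and their part in the level of Itgb3 was not tested. That is 1 of 17, or 5.88%, where 3.77% of all genes tested passed in the higher direction. Both KO libraries lay above both WT libraries in 2 of the 17 genes and below them in 7, where 28.8% and 27.6% of all genes tested did so.

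Around Fam20a the picture was mixed, with high ratios and flat genes side by side. Prkar1a, the gene of a regulatory subunit of protein kinase A, ends 92 bases from the end of Fam20a, so that these genes meet tail to tail on opposite strands. Prkar1a was at 379.1 and 379.0 CPM in KO, against 410 and 341 CPM in WT. The KO values lay between those of the WT libraries, and the fitted log2 fold change was 0.01 (SE 0.15), or -0.13 without WT replicate 2. Wipi1, which encodes a phosphoinositide-binding protein of early autophagosomes, starts 110 kb from the start of Fam20a. Wipi1 was at 11.9 and 12.2 CPM in KO, against 3.02 and 4.51 CPM in WT. Slc16a6, of the monocarboxylate transporter family, was at 33.2 and 22.8 CPM in KO, against 13.1 and 12.8 CPM in WT. Rgs9, a regulator of G protein signalling known from photoreceptors and the striatum, was at 11.4 and 12.9 CPM in KO, against 4.99 and 4.79 CPM in WT. In these 3 genes every KO library was above every WT library. Their fitted log2 fold changes were 1.68 (SE 0.39) for Wipi1, 1.11 (SE 0.28) for Slc16a6 and 1.32 (SE 0.36) for Rgs9. Without WT replicate 2 they were 1.98 for Wipi1, 1.08 for Slc16a6 and 1.27 for Rgs9. The rises of these 3 are therefore far smaller than that of Fam20a, and all 3 genes were also read well above the floor in WT.

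Ern1, the endoplasmic reticulum stress sensor also called IRE1 alpha, lies between the regions of Mrc2 and Fam20a. Ern1 was at 72.6 and 115 CPM in KO, against 46.2 and 56.3 CPM in WT. The groups did not overlap, but the KO libraries differed from each other by more than the gap between the lower KO and the higher WT value. Its log2 fold change was 0.87 (SE 0.23), and it ran from 0.49 without KO replicate 2 to 1.16 without KO replicate 1, with 1.01 without WT replicate 2.

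Of the 9 genes, 6 were past the adjusted threshold of the edgeR test in the higher direction (Mrc2, Fam20a, Ern1, Rgs9, Slc16a6 and Wipi1), where 3.77% of all genes tested were, and 6.78% passed in either direction. A fitted rise of at least 8-fold was found in 2 of the 9, Mrc2 and Fam20a, and in 1.58% of all genes tested. Since the genes were chosen from this contrast, nothing is read from these shares. Without WT replicate 1, and likewise without WT replicate 2, fewer of the 9 passed, and fewer genes passed over the whole table too. The lowest log2 fold changes with any 1 library left out were 7.86 for Mrc2 and 5.67 for Fam20a. They were 0.49 for Ern1, 1.22 for Rgs9, 0.81 for Slc16a6 and 1.41 for Wipi1. KO lay above WT without overlap in 8 of the 9, and in 28.8% of all genes tested.

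Beyond Fam20a, on the side away from Prkar1a, lies a cluster of genes of the ABCA lipid transporter family, and 3 of its 4 tested genes rose. These 3, Abca8b, Abca9 and Abca6, passed the filter on low counts only through their KO libraries. They were tested because KO was high, so the count of 3 is a description only. The first, Abca8b, starts 274 kb from the start of Fam20a. Abca8b had 158 and 93 counts in KO, against 14 and 3 counts in WT, or 5.93 ± 1.71 CPM in KO and 0.312 ± 0.270 CPM in WT (SD, n = 2 each). Its log2 fold change was 4.21 (SE 0.77, adjusted p = 0.0110, edgeR), with 3.53 (adjusted p = 0.0529, edgeR) without WT replicate 2 and 5.55 without WT replicate 1. Abca8a, the next gene, had no read in any library. Abca9 had 138 and 219 counts in KO, against 28 and 2 counts in WT, with a log2 fold change of 3.96 (SE 0.82, adjusted p = 0.0178, edgeR). The WT libraries differed widely, and the log2 fold change of Abca9 was 3.09 (adjusted p = 0.0438, edgeR) without WT replicate 2 and 6.65 without WT replicate 1. Abca6 had 25 and 9 counts in KO and none in WT. Set against a floor of 3 counts over the WT group, Abca6 was at least 14.3-fold higher in KO (adjusted p = 0.0451, edgeR), and it did not pass without KO replicate 2 or without either WT library. Abca5, the last of the cluster, had 706 and 586 counts in KO, against 281 and 498 counts in WT, with a log2 fold change of 1.03 that missed the threshold (adjusted p = 0.0763, edgeR). Abca5 passed without WT replicate 2 (adjusted p = 0.0489, edgeR) and with DESeq2 (adjusted p = 0.0253). The 4 genes share sequence as a family, so how reads were divided among them is uncertain. All 4 had higher counts in each KO library than in each WT library.

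Other genes in the same window did not pass the test. Gna13, a G protein alpha subunit gene that lies between Rgs9 and Slc16a6, was at 199 and 205 CPM in KO, against 205 and 194 CPM in WT. Its log2 fold change was 0.01 (adjusted p = 0.964, edgeR). Amz2, a metalloprotease gene that overlaps the end of Slc16a6 on the opposite strand, had a log2 fold change of -0.58 (adjusted p = 0.109, edgeR). Arsg, a lysosomal sulfatase gene, lies between Slc16a6 and Wipi1. It overlaps the start of Slc16a6 by 225 bases on the opposite strand, and its end abuts that of Wipi1. Arsg had 127 and 129 counts in KO, against 21 and 82 counts in WT (log2 fold change 1.60, adjusted p = 0.159, edgeR). The strand setting of the counting is not given in the sources used here, so reads in the overlaps of Slc16a6 with Amz2 and Arsg cannot be told apart.

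**Figure D2:**
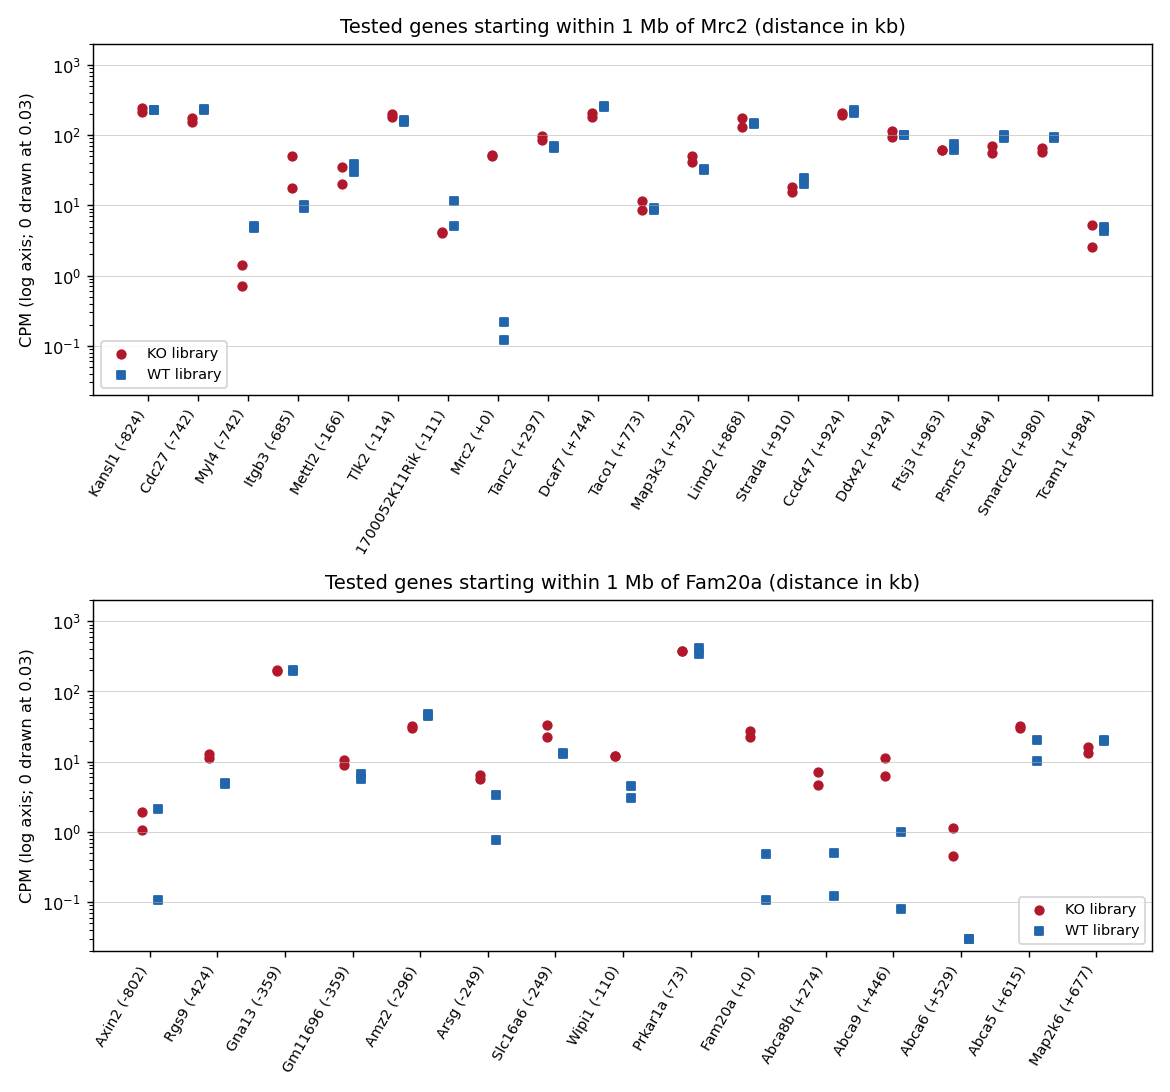
Level of each tested gene starting within 1 Mb of Mrc2 (upper panel) or Fam20a (lower panel), in CPM on a log axis, with 1 point per library and the distance to Mrc2 or Fam20a in kb; values of 0 are drawn at the bottom. Mrc2 has the widest gap between KO and WT points in the upper panel, where Itgb3 is also higher and Myl4 and 1700052K11Rik have lower KO points, while near Fam20a the KO points of Rgs9, Slc16a6, Wipi1 and the Abca genes also lie above the WT points, with Gna13 and Prkar1a level between them.

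Counted over the window, 14 tested genes other than Fam20a start within 1 Mb of it, and 6 of them (42.9%) were past the threshold in the higher direction, among them the 3 listed genes Rgs9, Slc16a6 and Wipi1, where 3.77% of all genes tested were. With the listed genes left out, 3 of 10 rose, all of the Abca cluster, and the median log2 fold change of the 10 was 0.84. The same count for Mrc2 was 1 of 19 tested genes other than Mrc2 (5.26%). These windows were drawn after the data had been seen, and the difference between them was not tested. Rgs9, Slc16a6 and Wipi1 were listed with results of this contrast known. The 3 Abca genes passed the filter on low counts only through KO. Nothing is therefore read from these shares beside that of all genes. The count near Fam20a rests on both WT libraries: it was 2 of the tested genes without WT replicate 1 and 2 without WT replicate 2.

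Over the whole 5 Mb interval that ends at 110 Mb and holds the 9, 60 other genes are listed in the table. Of these, 10 had no read in any library and 41 passed the filter on low counts. Their median log2 fold change was 0.07, and both KO libraries lay above both WT libraries in 13 of them, or 31.7%, against 28.8% of all genes tested. Abca8b was the only one of the 41 that rose with edgeR (2.44%, against 3.77% of all genes tested), and 5 were higher and 8 lower at an unadjusted p under 0.05. Leaving out the listed genes lowers this share, since genes that were high had been listed: with them, 7 of 50 were past the threshold (14.0%). Of the 41, 2 fell, where 3.01% of all genes tested did. Kpna2, an importin alpha gene, was at 76.6 ± 2.25 CPM in KO and 189 ± 0.839 CPM in WT (SD, n = 2 each), a log2 fold change of -1.30 (adjusted p = 0.00093, edgeR). Ddx5, an RNA helicase gene, had a log2 fold change of -0.49 (adjusted p = 0.0452, edgeR). Ddx5 did not pass without KO replicate 1 (adjusted p = 0.0510, edgeR) or either WT library, nor under upper quartile scaling. With 1 Mb added at each end of the interval, 4 of 50 other tested genes rose (Itgb3, Abca8b, Abca9 and Abca6), and 2 fell. Over the whole of chromosome 11 with the 9 left out, the interval included, 49 of 1177 tested genes rose, or 4.16%. At an unadjusted p under 0.05 (edgeR), 165 of these 1177 were higher and 143 lower, so such counts are common outside the interval too.

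**Figure D3:**
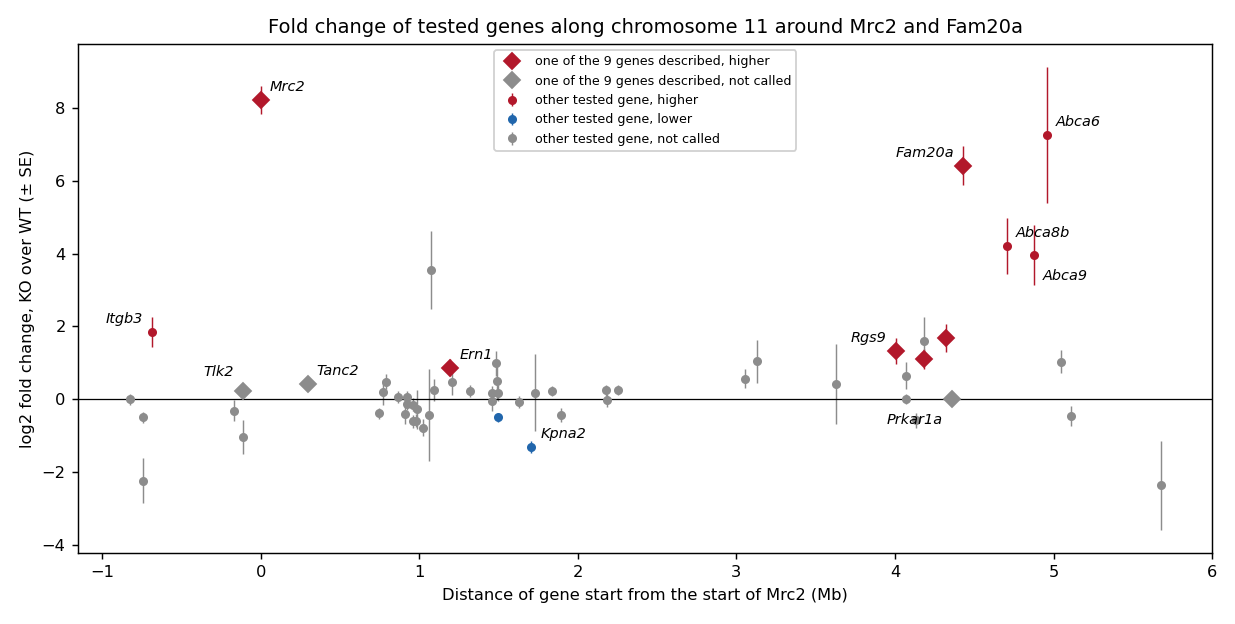
Log2 fold change of KO over WT (± SE) for each tested gene of the 5 Mb interval with 1 Mb added at each end, by the distance of its start from the start of Mrc2 in Mb. Diamonds are the 9 genes described and circles the other tested genes; Mrc2 at 8.21 stands between Tlk2 at 0.24 and Tanc2 at 0.42, with Itgb3 at 1.85 farther off, and Fam20a at 6.41 is followed by Abca8b and Abca9. The fitted value of Abca6 rests on WT counts of 0 and is no bound.

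Starts of transcription could be looked at for part of the genes. The RefSeq table of promoter windows (GRCm38.p6) matched 7 of the 9, and Mrc2 and Slc16a6 were not among them. Each window runs from upstream of an annotated start to just inside the gene, 300 bases in all. The windows of Fam20a, of its flat neighbour Prkar1a, of Tlk2 as the neighbour of Mrc2, and of Abca8b, which was added after its values were seen, are printed. Fam20a and Abca8b had few counts in WT, while Prkar1a and Tlk2 were read well in both groups. Capitals mark matches to any of 4 motifs searched on both strands. The motif CCCNNGGG is the core bound by Ebf1 and is its own reverse complement. The motif TATAAA is the core of the TATA box, GGGCGG is the GC box of Sp factors, and GAGGAA is a core of sites of the ETS factor PU.1. On the opposite strand the GC box reads CCGCCC, and the ETS core is found there as TTCCTC. Each sequence is on the strand of its gene; where RefSeq gives several starts, the window nearest to the annotated gene start is shown.
Fam20a (chr11:109722189-109722488, minus strand): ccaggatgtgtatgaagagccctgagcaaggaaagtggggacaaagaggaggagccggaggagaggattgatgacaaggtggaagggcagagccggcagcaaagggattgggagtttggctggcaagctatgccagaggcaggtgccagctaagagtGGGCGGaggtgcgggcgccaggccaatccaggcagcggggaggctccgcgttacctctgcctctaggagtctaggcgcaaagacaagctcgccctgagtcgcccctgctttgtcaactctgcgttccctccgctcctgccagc
Prkar1a (chr11:109649113-109649412, plus strand): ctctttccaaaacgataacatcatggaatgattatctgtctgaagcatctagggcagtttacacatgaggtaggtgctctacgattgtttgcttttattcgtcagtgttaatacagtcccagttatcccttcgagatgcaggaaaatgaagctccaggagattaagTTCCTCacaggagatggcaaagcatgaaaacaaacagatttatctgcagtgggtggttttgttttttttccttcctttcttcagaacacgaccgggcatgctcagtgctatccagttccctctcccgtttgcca
Tlk2 (chr11:105178557-105178856, plus strand): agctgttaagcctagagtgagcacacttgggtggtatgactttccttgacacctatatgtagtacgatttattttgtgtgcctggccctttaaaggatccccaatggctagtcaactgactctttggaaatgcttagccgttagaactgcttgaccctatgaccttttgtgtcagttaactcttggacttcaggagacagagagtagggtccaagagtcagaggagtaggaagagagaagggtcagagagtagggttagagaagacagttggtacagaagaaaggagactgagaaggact
Abca8b (chr11:109995796-109996095, minus strand): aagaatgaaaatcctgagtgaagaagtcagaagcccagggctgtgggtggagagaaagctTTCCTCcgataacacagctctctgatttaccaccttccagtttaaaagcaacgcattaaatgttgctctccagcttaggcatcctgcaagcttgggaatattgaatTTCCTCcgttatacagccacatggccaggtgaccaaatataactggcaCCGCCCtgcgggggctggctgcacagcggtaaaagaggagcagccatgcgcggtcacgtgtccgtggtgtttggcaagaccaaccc
The Fam20a window had a GC content of 61.7% and 13 CpG dinucleotides, against medians of 52.7% and 7 over 32851 windows. It held 1 GGGCGG, which 35.7% of all windows hold. The Abca8b window also held 1 match of this motif, as CCGCCC, and 2 of GAGGAA, as TTCCTC, which 28.3% of all windows hold. The Prkar1a window shown held 7 CpG and 1 TTCCTC, and the Tlk2 window shown held 2 CpG and no match. Other starts of these genes differed. A second Tlk2 window held 29 CpG, 2 matches of GGGCGG and 1 of GAGGAA. Other Prkar1a windows held from 3 to 46 CpG, and the one with 46 held 4 matches of GGGCGG. CCCNNGGG, found in 13.7% of all windows, was in none of the 4 printed. It was in the window of Ern1 and in 1 other window of Prkar1a. A match is a description of letters and not a binding site.

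Set against each other per kb of exon, the 9 genes changed places between the groups. In KO the highest level was that of Prkar1a at 87.7 CPM per kb, followed by Tlk2 at 23.6, Ern1 at 11.5, Mrc2 at 7.79, Fam20a at 6.84, Slc16a6 at 5.73, Tanc2 at 5.48, Wipi1 at 2.73 and Rgs9 at 1.91 CPM per kb. The libraries of Fam20a and Slc16a6 overlapped, as did those of Slc16a6 and Tanc2. In WT the order began with the same Prkar1a at 87.0, Tlk2 at 19.9 and Ern1 at 6.27 CPM per kb. Tanc2 at 4.10, Slc16a6 at 2.65, Wipi1 at 0.853 and Rgs9 at 0.765 CPM per kb came next, and Fam20a at 0.0812 and Mrc2 at 0.0252 CPM per kb were last. There the libraries of Wipi1 and Rgs9 overlapped, and so did those of Fam20a and Mrc2. In KO, Mrc2 and Fam20a thus lay above the median level of all genes tested, which was 5.24 CPM per kb, and in WT far below the median of 5.06 CPM per kb. Mrc2 stood at percentile 61.5 of tested genes in KO and at percentile 0.735 in WT. Fam20a stood at percentile 57.5 in KO and 2.97 in WT.

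**Figure D4:**
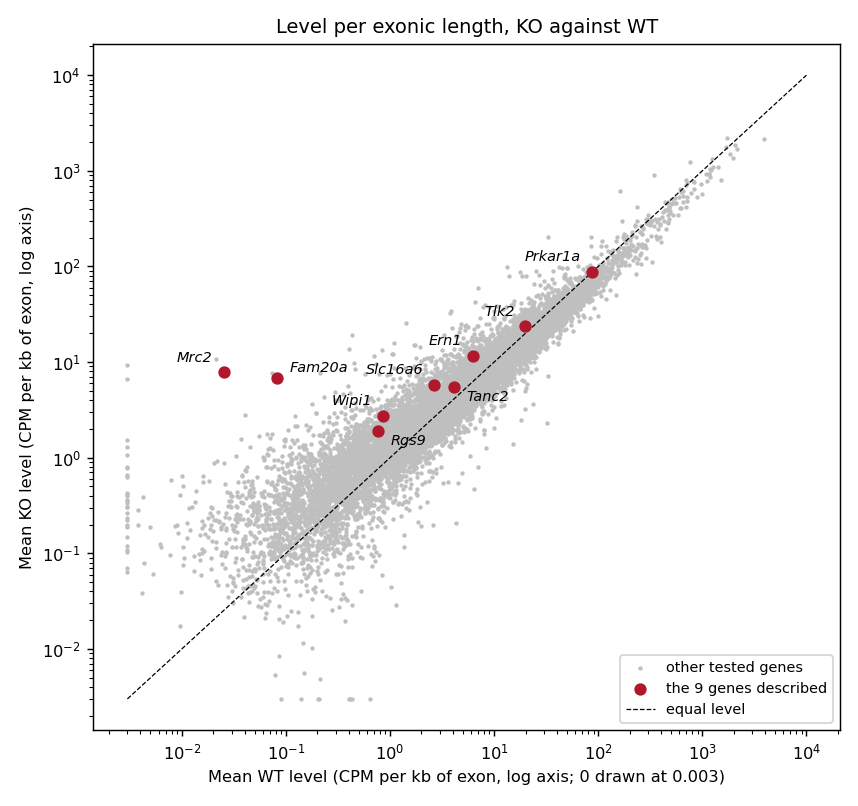
Mean level of each tested gene per kb of exon in KO (vertical) and in WT (horizontal), in CPM per kb on log axes, with the line of equal level. The 9 genes described are large points; Mrc2 and Fam20a lie far above the line, Prkar1a lies on it, and genes at 0 are drawn at the edge.

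Predicted gene models, genes named only by a clone or accession, pseudogenes, unannotated genes and Y-linked genes were left out of the next comparison. Genes with the most similar course over the 4 libraries were found by the root mean square difference of centred log2 CPM. For Mrc2 these were Fam20a (1.05), then Trnp1 (1.18), a chromatin-associated regulator of progenitor proliferation, Cma1 (1.37), a mast cell chymase, Tph1 (1.57), the serotonin synthesis enzyme of peripheral tissues and mast cells, and Pde3a (1.63), a phosphodiesterase. Among the genes compared, Fam20a was thus the nearest to Mrc2 in its course, although about 4.4 Mb away. The reverse did not hold, since Mrc2 was not among the 5 genes nearest to Fam20a. For Fam20a the nearest were Trnp1 (0.22), Nsun7 (0.81), Gpc4 (0.97), a glypican, Tph1 (1.02) and Clec1a (1.02), a C-type lectin receptor. None of the genes named besides Fam20a lies on chromosome 11. Trnp1 had 209 and 313 counts in KO, against 0 and 6 counts in WT. With 4 libraries this likeness mostly restates a large difference between the groups.

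Relatives of Mrc2 in sequence or in function had far smaller differences. Mrc1, the macrophage mannose receptor, was at 9.94 ± 1.28 CPM in KO and 5.64 ± 2.60 CPM in WT (SD, n = 2 each), a log2 fold change of 0.82 (adjusted p = 0.255, edgeR). Ly75, the DEC-205 receptor of dendritic cells, had a log2 fold change of 0.54 (adjusted p = 0.226, edgeR). Pla2r1, the phospholipase A2 receptor of the same family, had no read in any library. Of 18 other tested genes of collagen uptake and the urokinase system 2 rose. At an unadjusted p under 0.05 (edgeR), 6 of the 18 were higher and 3 lower. Serpine2, an inhibitor of urokinase and thrombin, was at 7.92 ± 1.72 CPM in KO and 2.06 ± 0.130 CPM in WT (SD, n = 2 each; log2 fold change 1.94, adjusted p = 0.0344, edgeR). Timp3, an inhibitor of metalloproteinases bound to matrix, was at 21.1 ± 10.4 CPM in KO and 6.42 ± 0.773 CPM in WT (SD, n = 2 each; log2 fold change 1.72, adjusted p = 0.0237, edgeR). Both missed the threshold without WT replicate 1 or 2, and also without KO replicate 1 for Serpine2 and KO replicate 2 for Timp3, whose log2 fold change was then 1.09. The median over the 18 was 0.04.

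The tested kinases related to Fam20a did not pass the test. Fam20c, its partner, had a log2 fold change of -0.74 (adjusted p = 0.663, edgeR), and Fam20b, a xylose kinase of proteoglycan assembly, had -0.04 (adjusted p = 0.95, edgeR). Of 9 other tested secretory kinases 0 passed with edgeR or DESeq2, 1 was lower at an unadjusted p under 0.05, and the median was -0.04.

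The remaining genes were likewise set beside their families. Tlk1, the paralog of Tlk2, had a log2 fold change of 0.08 (adjusted p = 0.771, edgeR). Tanc1, the paralog of Tanc2, fell: it was at 2.19 ± 0.924 CPM in KO and 8.09 ± 1.59 CPM in WT (SD, n = 2 each; log2 fold change -1.89, adjusted p = 0.0451, edgeR), and it missed the threshold without KO replicate 1, without either WT library and under upper quartile scaling. Wipi2, the paralog of Wipi1, had a log2 fold change of 0.00 (adjusted p = 1.0, edgeR). Of 12 other tested early autophagy genes 0 passed with edgeR or DESeq2, 0 had an unadjusted p under 0.05, and the median was 0.27. Of 12 other tested monocarboxylate transporter genes 1 fell, Slc16a1, the lactate carrier MCT1, at 29.6 ± 2.60 CPM in KO and 61.3 ± 6.59 CPM in WT (SD, n = 2 each; log2 fold change -1.05, adjusted p = 0.0137, edgeR). Slc16a1 missed the threshold without WT replicate 1 or 2, and the median over the 12 was -0.24. Slc16a6 therefore ran the other way from the best known lactate carrier of its family.

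Tested partners of Ern1 did not pass the test. Xbp1, whose transcript Ern1 splices, had a log2 fold change of 0.29 (adjusted p = 0.425, edgeR), and gene counts do not show splicing. Hspa5, the chaperone BiP, had -0.38 (adjusted p = 0.241, edgeR). Of 9 other tested genes of this arm of the unfolded protein response 0 passed with edgeR or DESeq2, 2 were lower at an unadjusted p under 0.05, and the median was -0.38. Of 4 other tested genes of the family of Rgs9 and its partners 0 passed with edgeR or DESeq2, and 1 was lower at an unadjusted p under 0.05. Gnb5, the G protein beta subunit that binds Rgs9, had a log2 fold change of 0.89 (adjusted p = 0.332, edgeR). Of 7 other tested subunits of protein kinase A 1 fell, the catalytic subunit gene Prkaca (log2 fold change -0.70, adjusted p = 0.0493, edgeR). Prkaca missed the threshold without KO replicate 2, without either WT library, and with DESeq2 size factors or upper quartile scaling. At an unadjusted p under 0.05 (edgeR), 3 of the 7 were lower and 0 higher. The median over the 7 was -0.41, and Prkar1a stood at 0.01.

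**Figure D5:**
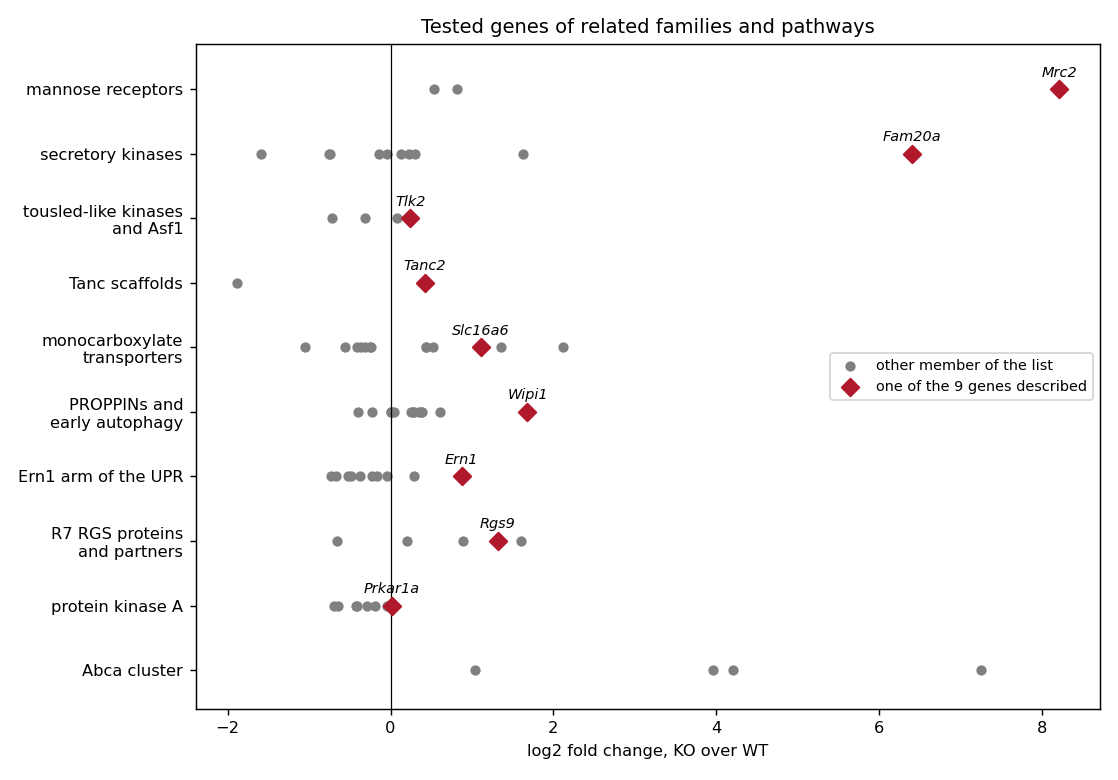
Log2 fold change of KO over WT for the tested genes of each family or pathway, with diamonds for the genes described and circles for their relatives. Mrc2 lies far to the right of the plotted mannose receptors (0.54 and 0.82) and Fam20a far to the right of the secretory kinases, and the Abca cluster lies to the right as a group.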

How the data were processed

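RNA came from LSK cells of 2 KO and 2 WT samples; per the labels, 20 ng of RNA went into each library, with 76 sequencing cycles. The authors deposited raw counts per gene symbol. The submitters' processing notes name TopHat2 2.1.1, SAMtools 1.5, Picard 2.9.4, HTSeq 0.8.0 and mm10; neither annotation nor strand setting is given in the sources used here. No row of unassigned reads was in the table. The Rn45s row held between 9.37% and 15.7% of a library's counts. Counts were tested with edgeR 4.0.16 (R 4.3.3; TMM factors, filterByExpr with a minimum count of 10 and a total of 15, quasi-likelihood test) over 14140 genes, Benjamini-Hochberg threshold 0.05. DESeq2 1.42.0, other scalings, filters, a replicate block and leaving out each library were alternatives. On simulated counts for 14141 genes the test found 51 of 100 genes set to a 2-fold difference and 93 of 100 set to 4-fold, with 8 false calls. The changed genes all had a mean expected count of at least 100, so these shares do not cover genes with fewer counts. Ratios of summed counts have exact conditional Poisson intervals. Positions and lengths are from GENCODE M21, matched by symbol. Members, lists and the rule for named genes (the members, called genes of the interval, nearest tested neighbours, paralogs, called list genes, and the 5 genes most like Mrc2 and Fam20a) were chosen with earlier results of these data known.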

Additional observations from a re-analysis of the deposited data

How the results depend on the processing

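With 2 libraries a group, calls rest strongly on each library. Genes higher in KO over the whole table numbered 533, but 1056 with no filter on low counts, 878 with DESeq2 and 1312 with the replicate number as a block; with 1 library left out they ranged from 160 to 997. Genes lower in KO numbered 425, but 987, 792 and 1314 under the same 3 settings, and from 95 to 1161 with 1 library left out. Upper quartile scaling gave 664 higher, and its median log2 fold change over all genes was 0.10, against 0.02. The difference of replicate 1 from replicate 2 in KO had a correlation of 0.076 with that in WT, over 14140 genes. With 1 such difference per group, and WT libraries that differ in sex, this cannot settle whether replicate numbers pair the libraries.

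Of the other genes of the 5 Mb interval, 1 was higher: 2 with no filter, 4 with the replicate block, 4 with 1 Mb added at each end, 4 within 1 Mb of Mrc2 or Fam20a, and 0 to 3 with 1 library left out. The 2 lower became 1 under upper quartile scaling, 5 with no filter, 5 with DESeq2, 7 with the block, 0 within 1 Mb of Mrc2 or Fam20a, and 1 to 4 with 1 library left out. The 3 higher within 1 Mb of Fam20a were 5 with no filter, 5 with the block and 2 with any 1 library left out. The 1 higher within 1 Mb of Mrc2 was 0 to 1 with 1 library left out. Mrc2 and Fam20a kept their direction under every setting run, with log2 fold changes of 7.86 to 8.68 and 5.67 to 7.77 with 1 library left out. Rgs9 missed the threshold with DESeq2 size factors and without KO replicate 2, Ern1 without KO replicate 2, Slc16a6 without KO replicate 1, and these 3 and Wipi1 without either WT library. The cause was not tested. Depth limits Mrc2, Fam20a, Abca8b, Abca9 and Abca6 in WT, where their counts per library ran from 0 to 28.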
